A study of Mus musculus with 6 samples.

Results

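Ligands and receptors of the TGF-beta and BMP family were followed through RNA sequencing of NIH/3T3 cells, an immortalised mouse embryo fibroblast line, with and without Mki67, which encodes Ki-67, a nuclear protein of dividing cells. The 10 genes were the TGF-beta ligand genes Tgfb1, Tgfb2 and Tgfb3, the BMP-class ligand genes Gdf5 and Bmp4, the activin subunit gene Inhba, and the receptor genes Tgfbr1, Tgfbr2, Tgfbr3 and Bmpr1a. All 10 were matched by symbol among 54146 gene identifiers, and 9 of them passed the low-count filter that left 13120 genes for testing. They were named with the knockout-to-wild-type values in view, Gdf5 for its rise, so those values are a description: no p-value is given for them, and counts past the threshold stand only beside the share of all genes. The rule is worded on the rise against WT, so members were tested for the difference between the clones, although values of all 3 groups were known when they were named.

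The groups were wild-type cells (WT) and a pair of Mki67-/- clones, each with 2 libraries of total RNA depleted of ribosomal RNA. Per the labels the cells are fibroblasts from a Swiss albino mouse embryo, grown in medium with foetal bovine serum, which the labels give for every group and which itself carries growth factors. Each knockout group is 1 clone, so what belongs to a clone and what belongs to the lost gene cannot be told apart within it. The labels do not say how the clones were made or whether replicates were separate cultures. The p-values therefore cover only variation among these libraries, which may be technical.

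The shallowest library, WT replicate 1, held 3873249 gene counts and the deepest, clone 1 replicate 1, 19678782. Levels are in CPM, counts normalised to the scaled library size. A floor of 3 counts is worth 0.815 CPM in WT replicate 1 and 0.152 CPM in clone 1 replicate 1, for counting error only. Mki67 had 49.2 and 55.2 CPM in WT and 4.24 to 7.69 CPM in the knockout libraries. The labels' extraction protocol names 4T1, a mammary tumour line, while titles and tissue labels name NIH/3T3. The summed level of 8 epithelial markers was 1.09 to 2.02 CPM, with Epcam and Krt19 at 0 counts in all 6 libraries, and that of 10 fibroblast markers 7323 to 11251 CPM.

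In this family a dimeric ligand brings type II and type I receptor kinases together, and the type I receptor phosphorylates SMAD transcription factors. TGF-beta and activin signal mainly through SMAD2 and SMAD3, and BMP and GDF ligands through SMAD1, SMAD5 and SMAD9, with SMAD4 shared. TGF-beta is secreted in a latent complex that matrix proteins and integrins store and activate. In fibroblasts the pathway is known for matrix synthesis and for the contractile program of myofibroblasts.

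The sequences just upstream of the transcription start are shown for the members whose knockout libraries all lay on one side of WT and whose window overlaps no annotated UTR. RefSeq (GRCm38.p6) gave a window for 7 of the 10 members, and Gdf5, Tgfb3 and Tgfbr3 are named only. Each run is 250 bases, 5′ to 3′ on the gene's strand, ending at the base before the start site. Capitals mark CAGAC, a SMAD element, and GGCGCC, a GC-rich SMAD box, searched on both strands together with the AP-1 site TGANTCA and the TEAD site CATTCC.
Tgfb1: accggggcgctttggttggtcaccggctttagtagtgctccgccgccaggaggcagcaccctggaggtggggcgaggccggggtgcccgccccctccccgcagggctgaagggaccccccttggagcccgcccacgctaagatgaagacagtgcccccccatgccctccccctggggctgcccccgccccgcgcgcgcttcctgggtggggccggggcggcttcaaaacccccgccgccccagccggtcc
Tgfbr2: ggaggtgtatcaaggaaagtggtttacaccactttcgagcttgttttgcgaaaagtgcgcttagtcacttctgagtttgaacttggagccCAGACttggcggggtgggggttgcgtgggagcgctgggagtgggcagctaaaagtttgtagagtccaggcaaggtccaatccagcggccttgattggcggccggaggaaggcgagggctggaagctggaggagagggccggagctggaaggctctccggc
Inhba: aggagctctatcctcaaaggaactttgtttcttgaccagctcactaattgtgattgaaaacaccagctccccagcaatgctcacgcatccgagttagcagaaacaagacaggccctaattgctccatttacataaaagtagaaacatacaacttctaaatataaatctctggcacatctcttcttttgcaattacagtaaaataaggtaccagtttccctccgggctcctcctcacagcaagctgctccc
Tgfbr1: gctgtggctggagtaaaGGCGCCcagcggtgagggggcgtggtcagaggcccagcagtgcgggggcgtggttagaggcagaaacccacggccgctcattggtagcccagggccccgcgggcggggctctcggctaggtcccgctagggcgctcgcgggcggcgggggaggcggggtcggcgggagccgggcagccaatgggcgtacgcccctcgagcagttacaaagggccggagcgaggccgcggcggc

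The Tgfb1 window lies at chr7:25686752-25687001 on the plus strand, the Tgfbr2 window at chr9:116175364-116175613 on the minus strand, the Inhba window at chr13:16011601-16011850 and the Tgfbr1 window at chr4:47352972-47353221, both on the plus strand. Tgfbr2 held CAGAC from position -160 to -156 before the start site, and the Tgfbr1 window shown held GGCGCC from -233 to -228. A further Tgfbr1 window, at chr4:47385966-47386215 and not shown, held CAGAC from -203 to -199 before its own start site. The Tgfb1 and Inhba windows held none of the 4 motifs, and no match overlapped another. Of 32851 windows of the same length in the table, 42.2% held CAGAC, 9.59% GGCGCC, 6.75% TGANTCA and 12.6% CATTCC, so single matches are common. The GC content was 75.2% for Tgfb1, 74.8% for Tgfbr1, 58.4% for Tgfbr2 and 43.2% for Inhba, beside a median of 52.4% over all windows.

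Per kilobase of exon, WT cells held most transcript for Tgfb3 and Tgfbr2. Mean levels in WT were 30.3 CPM per kilobase for Tgfb3, 17.3 for Tgfbr2, 7.54 for Bmpr1a, 7.39 for Tgfbr3, 3.57 for Tgfb1, 1.17 for Inhba, 1.00 for Tgfbr1, 0.838 for Gdf5 and 0.0859 for Tgfb2, with Bmp4 at 0. Among neighbours in that order, only the WT libraries of Bmpr1a and Tgfbr3 overlapped. In both clones Gdf5 stood at rank 5 in this order, above Tgfb1, at 4.08 CPM per kilobase in clone 1 and 7.18 in clone 2. The order depends on the length used, all annotated exons merged, which was 2.32 kilobases for Gdf5 and 5.042 for Tgfb1. In CPM, Tgfb1 (11.8 and 12.1) lay above Gdf5 (10.3 and 8.61) in clone 1. In clone 2, Gdf5 was the higher in CPM too (17.3 and 16.0 against 8.52 and 11.1). The clone 2 libraries of Gdf5 (6.91 and 7.45 per kilobase) overlapped those of Tgfbr3 (6.86 and 8.39). Inhba and Tgfbr1 overlapped in both clones.

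**Figure D1:**
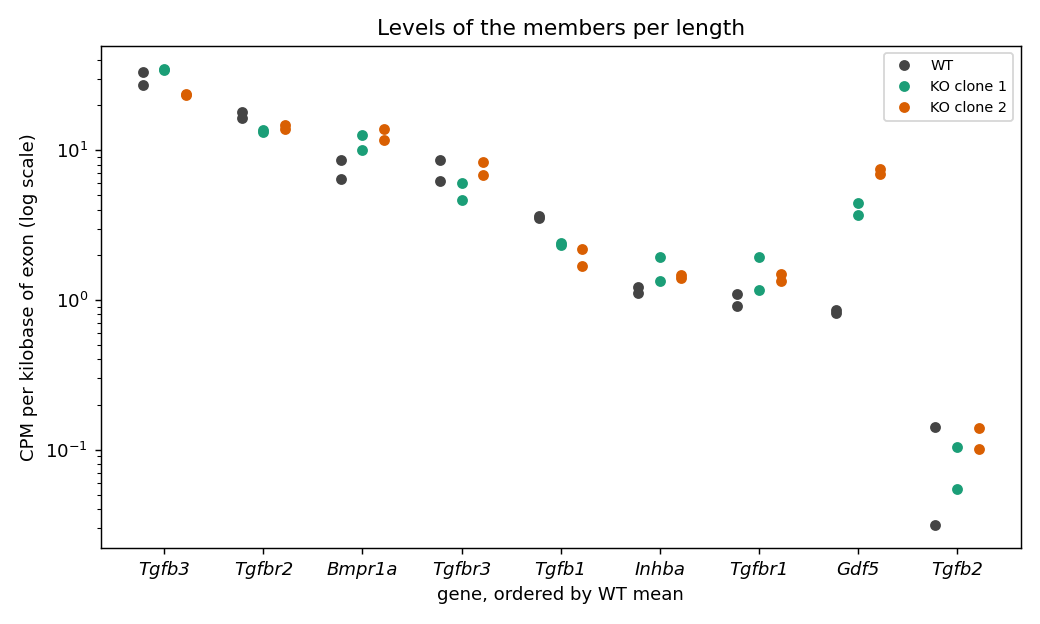
Levels of 9 members in CPM per kilobase of exon on a log axis, one point per library, coloured by group and ordered by the WT mean. Tgfb3 is highest in every group, and Gdf5 moves from 0.838 in WT to 4.08 in clone 1 and 7.18 in clone 2.

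Of the ligand genes, Gdf5 and Inhba were higher and Tgfb1 lower in all 4 knockout libraries than in either WT library, Inhba by a small margin. Gdf5 (ENSMUSG00000038259, chromosome 2, 155941023 to 155945367 in GRCm38, minus strand) encodes growth differentiation factor 5, a BMP-class ligand known from joint and cartilage formation. It had 7 and 22 counts in WT, 204 and 137 in clone 1, and 280 and 246 in clone 2. These were 1.90 and 1.98 CPM in WT, 10.3 and 8.61 in clone 1, and 17.3 and 16.0 in clone 2. No groups overlapped, and clone 2 stood above clone 1. The log2 fold change against WT was 2.27 ± 0.26 (SE) in clone 1, 3.08 ± 0.25 in clone 2 and 2.68 ± 0.24 for their mean, a 6.39-fold difference. Over the alternatives given below, the value for the mean ran from 2.24 to 2.95. In bulk libraries more cells with the transcript and more transcript per cell cannot be told apart. A list of 7 chondrocyte markers, set beside Gdf5, summed to 24.7 to 25.8 CPM in WT and to 13 to 14.6 CPM in the knockout libraries, with Matn3 at 0 counts in all 6.

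Tgfb1 (chromosome 7, 25687002 to 25705077, plus strand) encodes the most studied TGF-beta ligand. It had 18.2 and 17.8 CPM in WT, 11.8 and 12.1 in clone 1, and 8.52 and 11.1 in clone 2. All knockout libraries lay below WT, and clone 2 replicate 1 was the lowest. Log2 fold changes were −0.59 ± 0.19 (clone 1) and −0.87 ± 0.19 (clone 2).

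Tgfb3 (chromosome 12, 86056745 to 86079041, minus strand), the most abundant of the 3 isoforms here, had 91.8 and 113 CPM in WT, 119 and 117 in clone 1, and 80.8 and 79.6 in clone 2. The WT libraries thus lay between the clones, with clone 1 above and clone 2 below, and log2 fold changes against WT were 0.19 ± 0.13 for clone 1 and −0.37 ± 0.13 for clone 2. Without WT replicate 1 they were 0.05 and −0.50, and without WT replicate 2 they were 0.36 and −0.19. On the opposite strand Tgfb3 overlaps Ttll5, which the strand-specific counts separate; 0.442% of the reads over Tgfb3 were on that strand. Among the 3 TGF-beta isoforms, Tgfb3 made up 87.9% and 90.4% of the summed CPM per kilobase in WT, 93.5% and 93.4% in clone 1, and 92.9% and 91.1% in clone 2. Tgfb1 made up 11.7% and 9.51% in WT and 6.23% to 8.51% in the knockout libraries. These shares also depend on the merged exon lengths, 3.383 kilobases for Tgfb3 and 5.042 for Tgfb1.

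Tgfb2 (chromosome 1, 186622792 to 186705989, minus strand) had 3 and 2 counts in WT, 12 and 5 in clone 1, and 13 and 9 in clone 2. The groups overlapped at 0.180 to 0.815 CPM, and WT replicate 1 carried 3 counts at 0.815 CPM, so no difference was detectable at this depth. Bmp4, a BMP ligand gene on chromosome 14 (46383520 to 46390669), had 0 counts in all 6 libraries, which allows up to 0.815 CPM in WT replicate 1 and 0.152 CPM in clone 1 replicate 1.

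Inhba (chromosome 13, 16011851 to 16031621, plus strand), which encodes the subunit of activin A, had 7.06 and 7.85 CPM in WT, 8.49 and 12.4 in clone 1, and 9.01 and 9.39 in clone 2. The knockout libraries lay above WT, with clone 1 replicate 1 only a little above the higher WT library. Log2 fold changes were 0.46 ± 0.23 (clone 1) and 0.28 ± 0.23 (clone 2). Without clone 1 replicate 2 the first was 0.16 and without clone 1 replicate 1 it was 0.72, and after thinning to equal depth the second was −0.14.

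**Figure D2:**
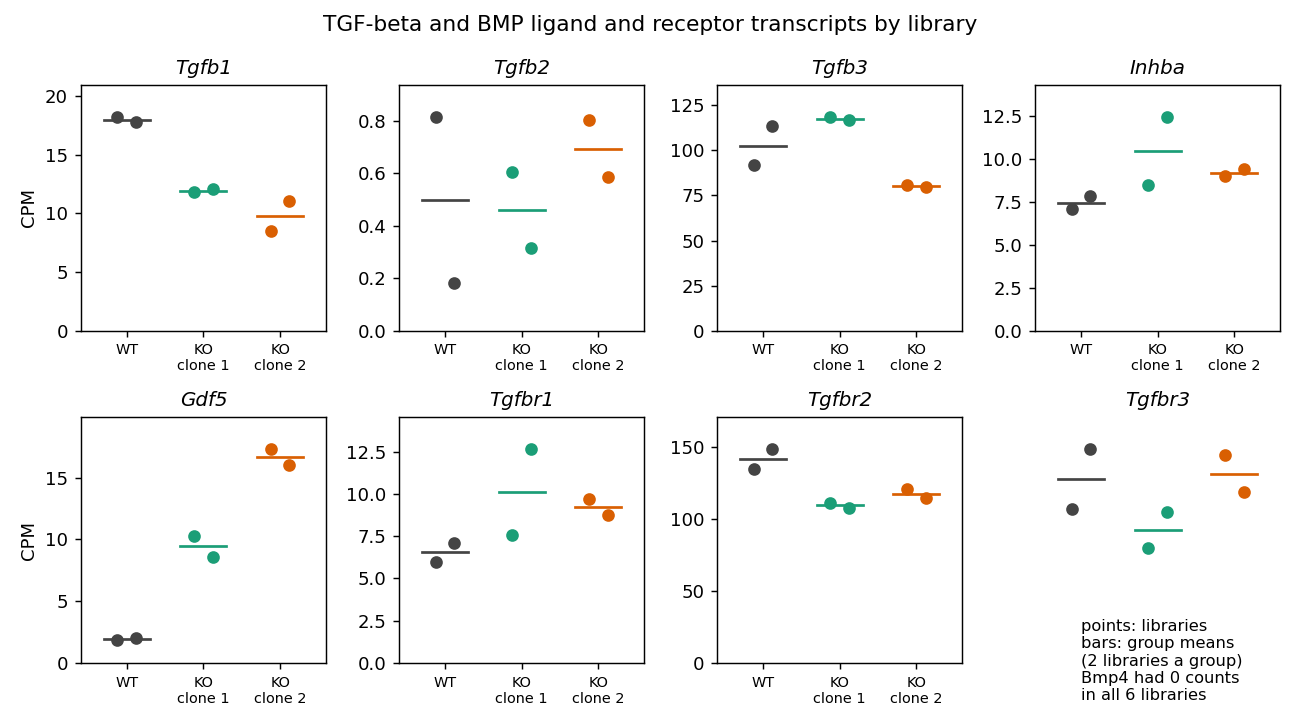
CPM in each library (points), with group means of 2 libraries (bars), one panel per gene with its own axis from 0. Panels are given for Tgfb1, Tgfb2, Tgfb3, Inhba, Gdf5, Tgfbr1 and Tgfbr2. Tgfbr3 is drawn without axes under a note, and Bmpr1a is not drawn. Gdf5 is between 8.61 and 17.3 CPM in the knockout libraries and below 2 CPM in WT, Tgfb1 is at most 12.1 CPM there, and Tgfb3 is high in clone 1 and low in clone 2.

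Among the receptor genes, Bmpr1a and Tgfbr1 were higher and Tgfbr2 lower in all 4 knockout libraries than in either WT library. Bmpr1a (chromosome 14, 34410734 to 34503341, minus strand) encodes ALK3, a type I BMP receptor that can bind GDF5. It had 41.0 and 54.7 CPM in WT, 63.7 and 80.7 in clone 1, and 88.0 and 73.9 in clone 2. The WT libraries differed from each other by more than the gap between the groups, yet none overlapped. Log2 fold changes were 0.56 ± 0.17 (clone 1) and 0.73 ± 0.17 (clone 2).

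Tgfbr2 (chromosome 9, 116084293 to 116175360, minus strand), the type II receptor that binds TGF-beta, had 135 and 148 CPM in WT, 111 and 108 in clone 1, and 121 and 114 in clone 2. Both clones lay below WT by a small margin, with log2 fold changes of −0.37 ± 0.12 and −0.27 ± 0.12. Tgfbr1 (chromosome 4, 47353222 to 47414931, plus strand), the type I partner ALK5, had 5.98 and 7.13 CPM in WT, 7.58 and 12.6 in clone 1, and 9.69 and 8.74 in clone 2. Here the spread within clone 1 exceeded the gap between the groups, and log2 fold changes were 0.57 ± 0.26 and 0.45 ± 0.27. The clone 1 value was 0.16 without clone 1 replicate 2 and 0.91 without clone 1 replicate 1.

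Tgfbr3 (chromosome 5, 107106570 to 107289629, minus strand), the co-receptor betaglycan, had 40.5 and 56.3 CPM in WT, 30.3 and 39.8 in clone 1, and 54.9 and 44.9 in clone 2. Clone 1 lay below both other groups, while WT and clone 2 overlapped. Its log2 fold changes were −0.50 ± 0.18 (clone 1) and 0.02 ± 0.18 (clone 2). Leaving out 1 library gave −0.71 to −0.20 for clone 1, the latter without WT replicate 2, and −0.17 to 0.31 for clone 2. Short gene models on the same strand lie within Tgfbr3, and reads over shared exons would be left out of its count. Of the summed CPM per kilobase of the 3 TGF-beta receptor genes, Tgfbr2 made up 59.9% to 70.1% in all 6 libraries, and Tgfbr1 3.88% and 3.93% in WT and 5.99% to 9.14% in the knockout libraries.

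**Figure D3:**
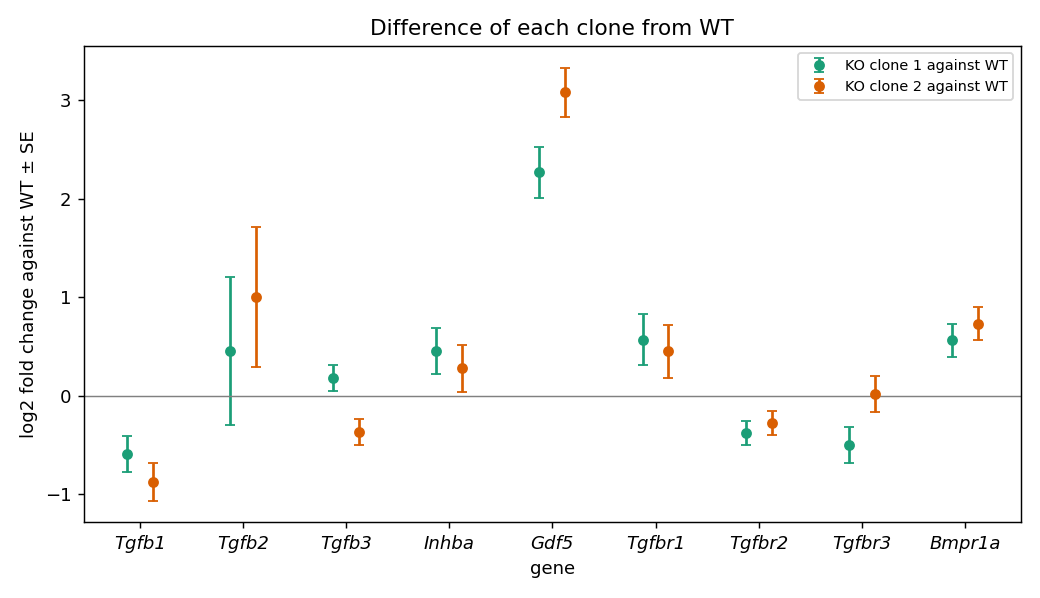
Log2 fold change of each clone against WT for 9 members, with the SE from the model as bars. Gdf5 stands at 2.27 and 3.08, Tgfb1 and Tgfbr2 are below 0 in both clones, Tgfb3 is above 0 in clone 1 and below it in clone 2, and Tgfbr3 in clone 2 is at 0.02.

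In the mean of both clones against WT, 2 of the 9 members passed the threshold in each direction, beside 34.8% of all genes (16.6% higher and 18.2% lower). The 4 knockout libraries stood wholly above WT for 4 members and wholly below for 2, where 25.1% and 24.7% of all genes did so (49.8% in either direction). Clone 1 against WT had 2 members past the threshold each way, beside 31.7% of all genes (15.2% higher and 16.5% lower). Clone 2 had 2 higher and 1 lower, beside 27.4% (12.9% and 14.5%), and these contrasts share the WT libraries. Nothing is read from any of these counts, because the members were chosen on knockout against WT.

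Between the clones, Gdf5 was higher and Tgfb3 lower in clone 2, and these were the members called out of 9 tested, beside 3.54% of all genes (1.18% higher and 2.36% lower). Gdf5 differed by 0.81 ± 0.17 on the log2 scale (95% interval 0.44 to 1.18, edgeR quasi-likelihood adjusted p = 0.0159). Tgfb3 differed by −0.55 ± 0.13 (−0.83 to −0.27, adjusted p = 0.0301). The Gdf5 call was lost without clone 1 replicate 2 (0.69, adjusted p = 0.114), clone 2 replicate 1 (0.75, 0.184) or clone 2 replicate 2 (0.86, 0.113). The Tgfb3 call was lost without any 1 of the 4 clone libraries, at −0.57 to −0.55 (adjusted p = 0.121 to 0.317). Both calls were also lost when libraries were thinned to equal depth (adjusted p = 0.0797 and 0.0803).

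Both clone 2 libraries lay above both clone 1 libraries for Gdf5, Tgfbr2 and Tgfbr3 and below them for Tgfb1 and Tgfb3, which is 5 of 9 members beside 47.8% of all genes (23.4% above and 24.5% below). The remaining 7 tested members were not called between the clones. Tgfbr3 differed by 0.51 (0.13 to 0.89, edgeR adjusted p = 0.150). Leaving out 1 library gave 0.31 to 0.72 for it, with 0.51 when either WT library was the one left out. The intervals were −0.67 to 0.10 for Tgfb1, −0.61 to 0.26 for Inhba, −0.61 to 0.36 for Tgfbr1, −0.16 to 0.36 for Tgfbr2, −0.17 to 0.51 for Bmpr1a and −0.54 to 1.63 for Tgfb2. These leave room for differences of up to about that size in either direction.

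The other genes of the pathway were taken from lists by role and tested in every contrast. Among 18 other ligand genes, 9 had 0 counts in all 6 libraries and 3 were tested, of which 2 fell, where 18.2% of all genes tested fell and 16.6% rose. Gdf11, a ligand close to myostatin, fell from 62.5 and 67.9 CPM in WT to 43.3 and 46.2 in clone 1 and 51.7 and 44.0 in clone 2 (log2 fold change of the knockout mean −0.50 ± 0.12, adjusted p = 0.00551). Gdf15, a stress-induced member, had 4 and 8 counts in WT, 10 and 5 in clone 1, and 3 and 2 in clone 2. Its call (−1.63 ± 0.54, adjusted p = 0.0315) was lost without any library but clone 1 replicate 1, at −2.03 to −1.45, and also with DESeq2 (−1.77), with unstranded counts (−1.24) and with no low-count filter (−1.58). Bmp7 had 1 and 8 counts in WT and 0 in the 4 knockout libraries and was not tested.

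Of 10 other receptors and co-receptors tested, 1 rose and 5 fell, beside 16.6% and 18.2% of all genes (median log2 fold change −0.30, beside 0.0049 over all genes). Bmpr2, the type II BMP receptor, rose from 12.8 and 19.1 CPM in WT to 27.4 and 33.3 in clone 1 and 23.8 and 28.7 in clone 2 (0.76 ± 0.18, adjusted p = 0.00497). The BMP co-receptor gene Rgma fell from 62.8 and 53.3 CPM to between 16.6 and 24.4 CPM (−1.49 ± 0.14, adjusted p = 2.81e-06). Acvr2b, a type II activin receptor gene, fell from 7.34 and 6.49 CPM to between 2.53 and 2.96 CPM (−1.33 ± 0.21). Bambi, which encodes a decoy receptor without kinase activity, fell from 20.9 and 15.0 CPM to between 7.53 and 9.98 CPM (−0.98 ± 0.19). The other falls were those of Rgmb (−0.76 ± 0.11) and the activin type I receptor gene Acvr1b (−0.46 ± 0.13), uncalled at −0.39 when WT replicate 2 was left out (adjusted p = 0.124) and at −0.36 after thinning to equal depth (0.104).

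All 18 SMADs and intracellular regulators were tested, and 7 rose and 4 fell (38.9% and 22.2%), beside 16.6% and 18.2% of all genes (median 0.08). The inhibitory SMAD genes, which are induced by the pathway and dampen it, both rose. Smad7 went from 42.4 and 46.5 CPM in WT to 86.2 and 96.9 in clone 1 and 72.5 and 66.3 in clone 2 (0.83 ± 0.12, adjusted p = 1.77e-04). Smad6 went from 26.4 and 26.6 CPM to between 39.8 and 51.1 CPM (0.74 ± 0.13, adjusted p = 6.97e-04). Smad9, a BMP-class SMAD gene, had 6.25 and 8.57 CPM in WT and 15.7 to 19.6 CPM in the knockout libraries (1.19 ± 0.18). Smurf2, a ubiquitin ligase gene that targets receptors and SMADs, rose by 0.84 ± 0.13 and the co-repressor gene Skil by 0.94 ± 0.19. The other rises were those of Zfyve9, the SMAD anchor SARA (0.71 ± 0.22), lost without clone 1 replicate 2 (0.49, adjusted p = 0.0510), and of the SMAD phosphatase gene Ppm1a (0.33 ± 0.12), lost without any library but WT replicate 2 (0.24 to 0.36).

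The falls in that list included a TGF-beta-class SMAD. Smad3 fell from 115 and 120 CPM in WT to 96.4 and 81.4 in clone 1 and 78.0 and 77.5 in clone 2 (−0.50 ± 0.11, adjusted p = 0.00339). Tgif1, a co-repressor gene, fell from 140 and 136 CPM to between 71.1 and 73.1 CPM (−0.93 ± 0.10, adjusted p = 1.24e-05). Ski (−0.33 ± 0.10) and Smurf1 (−0.30 ± 0.11) were also called lower, but each lost the call without any library but WT replicate 2, at −0.34 to −0.29 for Ski and −0.33 to −0.23 for Smurf1. The remaining receptor-activated and common SMAD genes were not called, with log2 fold changes of −0.09 for Smad1, 0.06 for Smad2, 0.11 for Smad4 and −0.07 for Smad5.

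The list for latency and activation of TGF-beta also holds an inhibitor gene, Emilin1. Of its 12 tested genes, 5 rose and 3 fell in the knockout mean, beside 16.6% and 18.2% of all genes (median 0.30). In clone 2 alone against WT, 3 were called higher and 4 lower, beside 12.9% and 14.5% of all genes. Thbs1, the activator thrombospondin 1, had 342 and 378 CPM in WT and 724 to 1077 CPM in the knockout libraries (1.30 ± 0.13, adjusted p = 6.86e-06). Itgav, the integrin chain of the latency-peptide receptors, rose from 43.7 and 47.1 CPM to between 89.9 and 128 CPM (1.22 ± 0.15). Emilin1, an inhibitor of TGF-beta maturation, rose by 0.94 ± 0.12, and Itgb5, a partner chain of Itgav, by 0.35 ± 0.11. The Itgb5 call was lost without any library but WT replicate 2 (0.31 to 0.38). Of the falls, Ltbp4 of the latent TGF-beta binding proteins reached −0.91 ± 0.16. The microfibril gene Fbn1 (−0.72 ± 0.16) was uncalled at −0.35 when WT replicate 2 was left out (adjusted p = 0.174). The proprotein convertase gene Furin (−0.46 ± 0.12) was uncalled at −0.32 when WT replicate 1 was left out (adjusted p = 0.0646).

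Ltbp2, the other gene called higher in the knockout mean (0.66 ± 0.13), differed between the clones. It had 98.4 and 124 CPM in WT, 288 and 296 in clone 1, and 99.96 and 116 in clone 2, so that clone 1 stood apart while clone 2 overlapped WT (−0.06 ± 0.14). The difference of clone 2 from clone 1 was −1.44 ± 0.14 (95% interval −1.74 to −1.13, adjusted p = 2.66e-05), and it was the 1 gene of the 12 called between clones.

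Of 6 tested extracellular antagonists and modulators, 1 rose and 3 fell in the knockout mean, beside 16.6% and 18.2% of all genes (median −0.56). In clone 1 against WT, 2 were called higher and 1 lower, beside 15.2% and 16.5% of all genes. In clone 2 against WT, 0 were called higher and 3 lower, beside 12.9% and 14.5%. Chrd, the BMP antagonist chordin, fell from 5.71 and 6.40 CPM in WT to between 1.76 and 2.53 CPM (−1.56 ± 0.23, adjusted p = 1.97e-04). Twsg1, a BMP-binding modulator gene, rose by 0.69 ± 0.18. Without WT replicate 2 it reached 1.10 and without WT replicate 1 it was 0.43, both called. Noggin (Nog) and gremlin 1 (Grem1) had 0 counts in all 6 libraries.

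Both antagonist genes called between clones were lower in clone 2. Fstl1, a follistatin-like gene, had 361 and 506 CPM in WT, 318 and 355 in clone 1, and 197 and 173 in clone 2, and clone 2 differed from clone 1 by −0.87 ± 0.16 (adjusted p = 0.00605). Nbl1, a DAN-family gene, had 30.2 and 29.8 CPM in WT, 25.7 and 22.6 in clone 1, and 11.9 and 14.3 in clone 2, a difference of −0.89 ± 0.16 (adjusted p = 0.00522). The Fstl1 call was lost without clone 1 replicate 2 (−0.79) or clone 2 replicate 2 (−0.78), and that of Nbl1 without clone 2 replicate 1 (−0.76) or after thinning to equal depth (−0.64). Against WT, the knockout means of Fstl1 and Nbl1 were lower by −0.80 ± 0.13 and −0.75 ± 0.14, while in clone 1 they were uncalled at −0.37 and −0.31.

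**Figure D4:**
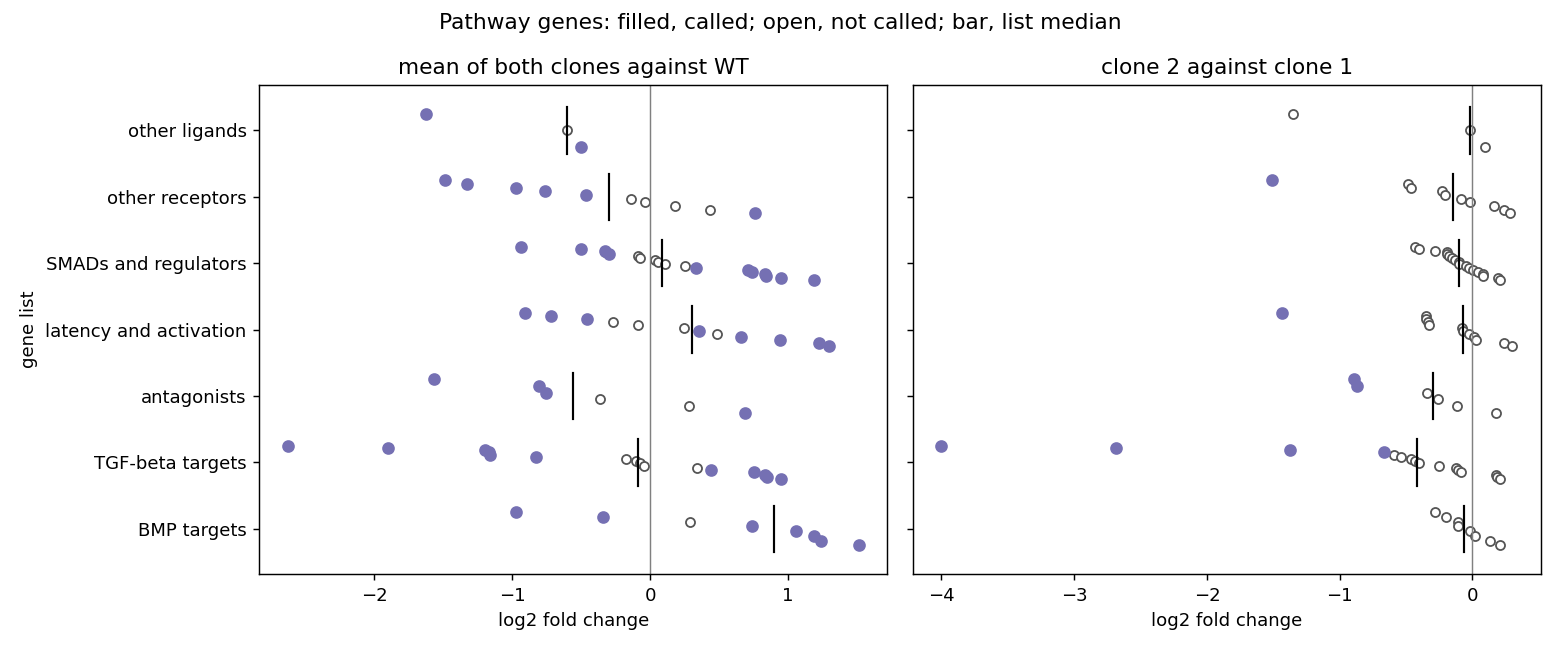
Log2 fold changes of tested pathway genes by list, for the mean of both clones against WT (left) and clone 2 against clone 1 (right), with filled points for called genes, open points for others and a bar at each list's median. The median of the BMP target list is 0.90 on the left, and the called points on the right all lie below 0, led by Tagln at −4.0.

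Of 14 listed BMP target genes, 8 were tested. Hey1, Msx2, Dlx5, Nog and Grem1, 5 of the others, had 0 counts in all 6 libraries. Of the 8 tested, 5 rose in the knockout mean and in each clone against WT. Of all genes, 15.2% rose in clone 1 and 12.9% in clone 2. In the mean 2 fell, and these 5 and 2 stand beside 16.6% and 18.2% of all genes, with a median of 0.90 beside 0.0049. Under the alternatives, 5 to 6 were called higher in the knockout mean and 4 to 6 in each clone. Id2, which encodes an inhibitor of basic helix-loop-helix factors, had 57.9 and 70.0 CPM in WT, 198 and 195 in clone 1, and 163 and 180 in clone 2 (1.51 ± 0.13, adjusted p = 1.04e-06). Id4, of the same family, went from 1.90 and 2.07 CPM to between 4.55 and 5.25 CPM (1.24 ± 0.26, adjusted p = 0.00229). Atoh8, a helix-loop-helix factor gene known as a BMP target, went from 38.6 and 37.6 CPM to between 73.5 and 83.8 CPM (1.06 ± 0.12, adjusted p = 2.56e-05). Smad6 and Smad9, given above, complete the rises.

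The remaining BMP targets were not called higher. Id1, the best known of them, had 139 and 169 CPM in WT and 167 to 198 CPM in the knockout libraries, which overlapped (0.29 ± 0.12, 95% interval 0.02 to 0.55, adjusted p = 0.0849). Id3 was called lower (−0.34 ± 0.11, adjusted p = 0.0287), a call lost without WT replicate 2 (−0.26), either clone 1 library (−0.35 and −0.35) or clone 2 replicate 1 (−0.30). Bambi, also a receptor-list gene, fell as given above. Between the clones, differences in the 8 genes ran from −0.28 for Smad6 to 0.21 for Smad9, with adjusted p of 0.330 or more in edgeR.

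TGF-beta target genes split. Of 16 tested, 5 rose and 6 fell in the knockout mean, beside 16.6% and 18.2% of all genes, with a median of −0.09. Ccn2, the connective tissue growth factor gene, had 922 and 714 CPM in WT, 1915 and 1791 in clone 1, and 1182 and 1155 in clone 2 (0.85 ± 0.14, adjusted p = 3.80e-04). Skil and Smad7 rose as above, and Col1a1 by 0.75 ± 0.13 and Pmepa1 by 0.44 ± 0.12.

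The 6 targets called lower were Col3a1, Tagln, Acta2, Fn1, Tgfbi and Postn. Col3a1, of type III collagen, had 452 and 867 CPM in WT and 163 to 204 CPM in the knockout libraries (−1.90 ± 0.18, adjusted p = 3.43e-06). Tagln, the actin-binding protein SM22, reached −2.62 ± 0.21, Acta2, smooth muscle actin, −1.17 ± 0.12, and Fn1, fibronectin, −0.83 ± 0.15. The matrix gene Tgfbi (−1.16 ± 0.20) was uncalled at −0.56 when WT replicate 2 was left out (adjusted p = 0.0973). So was the periostin gene Postn (−1.20 ± 0.32), at −0.43, and it was also uncalled at −0.82 after thinning to equal depth (edgeR adjusted p = 0.139). Without WT replicate 1 or 2, Col3a1 came to −2.29 or −1.34 and Fn1 to −1.11 or −0.47, all called.

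Between the clones, 4 of 16 TGF-beta targets were called lower in clone 2, beside 2.36% of all genes, and 3 to 8 were called lower under the alternatives. Tagln had 24.5 and 16.6 CPM in WT, 12.6 and 13.1 in clone 1, and 0.926 and 0.652 in clone 2, a difference of −4.0 ± 0.28 (adjusted p = 1.61e-06). The clone 2 values rest on 15 and 10 counts, and the difference ran from −4.28 to −3.08 over the alternatives. Of the reads over Tagln, 12.6% were on the opposite strand. Acta2 had 1022 and 804 CPM in WT, 1022 and 1038 in clone 1, and 154 and 166 in clone 2 (−2.69 ± 0.15, adjusted p = 1.83e-07).

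Pmepa1, a feedback inhibitor gene of TGF-beta signalling, had 44.0 and 45.9 CPM in WT, 96.3 and 101 in clone 1, and 38.8 and 37.4 in clone 2 (−1.38 ± 0.13, adjusted p = 1.36e-05). Ccn2 differed by −0.67 ± 0.15 (adjusted p = 0.0256), a call lost without any 1 of the 4 clone libraries (−0.71 to −0.63, adjusted p = 0.0942 to 0.329). Against WT, Ccn2 was called higher in both clones, Pmepa1 was called higher in clone 1 (1.13 ± 0.13, against −0.24 ± 0.13 in clone 2), and Acta2 was called lower in clone 2 (−2.51 ± 0.15, against 0.17 ± 0.14 in clone 1). Ccn2 and Pmepa1 are named here after their values were seen, since the rule takes the 2 largest differences. The 6 smooth muscle markers, 3 of which are in this list, summed to 883 to 1123 CPM in WT, 1105 to 1112 in clone 1 and 214 to 232 in clone 2. Acta2 alone made up most of each sum. Of the 4 markers tested, 1 was called higher and 2 lower in the knockout mean, beside 16.6% and 18.2% of all genes. Between the clones 0 were called higher and 3 lower in clone 2, beside 1.18% and 2.36%. The part of these markers in the result was not tested.

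**Figure D5:**
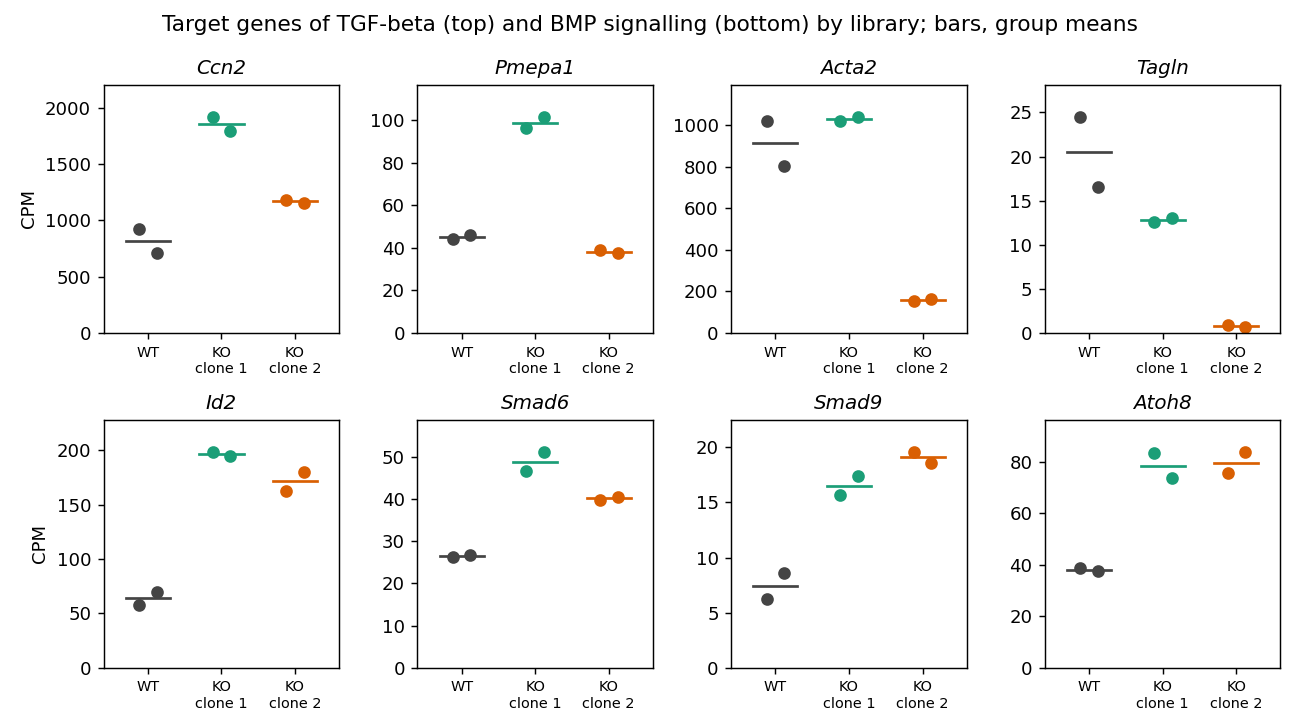
CPM of 4 TGF-beta targets (top) and 4 BMP targets (bottom) in each library, with bars at the means of 2 libraries, each panel starting at 0. The panels were picked by outcome, as TGF-beta targets called between the clones and BMP targets called higher in the knockout mean. These TGF-beta targets are lower in clone 2 than in clone 1, such as Acta2 at 154 and 166 against 1022 and 1038 CPM. These BMP targets are above WT in both clones. Of the 16 TGF-beta targets tested, 12 were not called between the clones. Of the BMP list, Bambi and Id3 were called lower and Id1 was not called.

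The genes closest to Gdf5 and to Tgfb1 over the 6 libraries were found from the root mean square difference of centred log2 CPM (prior count 2), Tgfb1 being the member with the lowest fold change. Nearest to Gdf5 were Otud7a, 1500011B03Rik, Cacna1i, Slc6a12 and Eps8l2, at 0.20 to 0.28. Of these Eps8l2 was well counted, at 15.5 and 12 CPM in WT, 46.0 and 38.6 in clone 1, and 78.0 and 79.4 in clone 2, while the first 4 were below 1 CPM in WT. Nearest to Tgfb1 were S100a13, Mfap5, Serpinf1, Gli2 and Sema3b, at 0.06 to 0.08. Serpinf1 had 1321 and 1274 CPM in WT, 900.2 and 832 in clone 1, and 678 and 770.0 in clone 2. Likeness over 6 libraries in 3 groups is a description and shares the libraries' depth.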

How the data were processed

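Per the submitters' processing notes, reads were viewed with FastQC and aligned with STAR 2.6.0c to GRCm38; no source used here gives the annotation behind the counts. The authors deposited raw STAR gene counts, of which the reverse-strand column was used. Between 46.6% and 50.5% of reads fell in rows without a gene, which were left out. STAR leaves multimapping and ambiguous reads out, so genes with near-identical copies are uncertain. Symbols, positions and exon lengths came from GENCODE M21 of GRCm38 (54079 of 54146 identifiers matched).

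Genes were kept by filterByExpr (minimum count 10), scaled by TMM (trimmed mean of M-values) and fitted to all 6 libraries with 1 coefficient per group in edgeR 4.0.16 (R 4.3.3), leaving 3 residual degrees of freedom. Calls used edgeR's quasi-likelihood test over 13120 genes with Benjamini-Hochberg adjusted p under 0.05. CPM used TMM-scaled library sizes. SE are from the fit.

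The members and lists were chosen with earlier results of these data known. The rule names all members, up to 3 called rises and 3 called falls per list (knockout mean), up to 2 each way between clones, and the 5 nearest genes; any further gene was picked after its values were seen. Some pathway genes are not reported here and were left out of the lists. Replicates of each group differed by more than sampling noise (chi-square per degree of freedom 13.6 to 22.2). The fit was tested on simulated counts for 13120 genes, for the knockout mean contrast. It called 52.4% of genes changed by 0.58 on the log2 scale, 86.7% at 1, 97.0% at 2 and 0.0951% of unchanged genes. The changed genes, alike in both clones, numbered 67, 62 and 71, beside 12920 unchanged. The percentages cover those that passed the filter in the simulated counts. In the data 34.8% of genes were called, a far larger share than was changed here, so these rates need not hold for the data. Alternatives were DESeq2 1.42.0, RLE scaling, no low-count filter, unstranded counts, thinning to equal depth, the replicate number as a block, and leaving out each library.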

Additional observations from a re-analysis of the deposited data

Results flagged for a closer look

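The test of clone 2 against clone 1 in all 6 libraries called 2 of 9 tested members and 8 other pathway genes. Of all genes tested, 3.54% were called (1.18% higher and 2.36% lower). Gdf5 was higher in clone 2 by 0.81 on the log2 scale. The other 9 were lower in clone 2. Among the ligands and receptors these were Tgfb3 (−0.55) and the type I receptor gene Acvrl1 (−1.51). Acvrl1, known as ALK1, had 4 and 10 counts in WT, 35 and 30 in clone 1, and 10 and 10 in clone 2, and its call was lost by DESeq2 (adjusted p = 0.285) and without any 1 of the 4 clone libraries (−1.57 to −1.47). In the matrix and extracellular lists they were Ltbp2 (−1.44), Fstl1 (−0.87) and Nbl1 (−0.89). Among TGF-beta targets they were Ccn2 (−0.67), Pmepa1 (−1.38), Acta2 (−2.69) and Tagln (−4.0). The calls of Gdf5, Tgfb3, Fstl1, Nbl1 and Ccn2 were lost when certain single clone libraries were left out, as given above.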

How the results depend on the processing

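The number of genes called between the knockout mean and WT stayed within 1.5 times of 4561 under every alternative. Leaving out 1 library gave 2205 to 4348 for clone 1 against WT (4154 with all), 1669 to 4010 for clone 2 against WT (3592) and 156 to 1208 for clone 2 against clone 1 (465). Clone 2 against clone 1 gave 813 without a low-count filter and 172 after thinning to equal depth; the cause was not tested. A lone library left in a group was assumed to vary like the other groups. Among members, sign changed between clones without 1 library for Inhba (−0.45 to 0.11), Tgfbr1 (−0.47 to 0.28) and Bmpr1a (−0.0082 to 0.34), where clone 1 replicates 1 and 2 set the ends and each sign change was uncalled. Replicate numbers are shared across groups, but the labels tie them to nothing: deviations of replicate 1 correlated at 0.27 between WT and clone 1, −0.09 between WT and clone 2 and −0.11 between the clones. With the replicate block the counts of calls were 4874, 4447, 3955 and 634, and among members and named genes Tgfbr3 was called between clones (0.53, adjusted p = 0.0485) and Smurf1 was not called. The depth of WT replicate 1 limits Tgfb2, Bmp4, Bmp7 and Gdf15.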

Other observations

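Markers of other cell types gave the following in the same libraries. The macrophage receptor gene Csf1r rose from 5.43 and 3.70 CPM in WT to between 17.3 and 22.5 CPM in the knockout libraries (2.17 ± 0.21, adjusted p = 3.62e-06), while Adgre1, which encodes the macrophage marker F4/80, had 0 counts in all 6. Of the reads over Csf1r, 46.8% were on the opposite strand. The 6 macrophage markers summed to 20.3 to 25.8 CPM in WT and 31.7 to 36.6 CPM in the knockout libraries, while Cd68 (−0.23) and Lyz2 (−0.06) were not called and Ptprc had 1 and 4 counts in WT and 0 in the knockout libraries. The endothelial markers Emcn (−1.25 ± 0.15) and Cdh5 (−1.82 ± 0.27) fell, with Kdr at 0 counts in all 6, and the 6 endothelial markers summed to 38.0 to 44.4 CPM in WT, 12.3 to 15.8 in clone 1 and 20.8 to 22.7 in clone 2. Of 10 fibroblast markers, 1 rose and 6 fell, beside 16.6% and 18.2% of all genes. Vim, the intermediate filament gene, fell from 5337 and 5399 CPM in WT to between 3355 and 3755 CPM (−0.60 ± 0.13). Dcn, the proteoglycan decorin, had 14 and 81 counts in WT, 2 in clone 2 replicate 1 and 0 in the other knockout libraries.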
